A study of Rattus norvegicus with 2 samples.

Results

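The antioxidant and Nrf2 target genes described here were taken from a list of 10 symbols, Hmox1, Slc7a11, Nqo1, Gclm, Txnrd1, Srxn1, Sod2, Sod3, Gpx1 and Gpx3, which were looked up among the 32623 genes of the count matrix. Of these, 9 were listed and measured, and Srxn1 was not listed. Their UMI counts (a UMI tags 1 captured RNA molecule) were read across cell classes in 2 single-cell RNA-seq libraries of the carotid artery of SD rats. The control library pooled the untreated left carotid arteries of 2 rats, and the case library pooled the right carotid arteries of the same 2 rats after balloon injury, a model of the restenosis that follows stenting. Tissue was taken 28 days after injury. The labels list the rats at 12 weeks of age, and they were 8 weeks old at surgery. With 1 library per group there was no replicate, so no p-value is given. All intervals are exact 95% Poisson, binomial or Clopper-Pearson intervals that cover counting error only, and a difference between the arteries cannot be told apart from a difference between 2 libraries.

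Nrf2, encoded by Nfe2l2, is a transcription factor that is held down by Keap1 and released by electrophiles and oxidants. It acts with small Maf proteins through the antioxidant response element. Its best known targets break down heme (Hmox1), import cystine (Slc7a11), make glutathione (Gclm), reduce thioredoxin (Txnrd1) and reduce quinones (Nqo1). Superoxide dismutases and glutathione peroxidases remove the superoxide and peroxides themselves, and extracellular superoxide dismutase is a known product of the arterial wall.

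The control library held 3321 barcodes and 24968329 UMIs, and the case library held 5656 barcodes and 28232614 UMIs. After filtering, 2742 control cells and 4930 case cells were kept, with medians of 8880 and 5156 UMIs. Of the kept cells, 27.5% of control and 6.49% of case cells held under 2000 UMIs, and 9 barcodes were kept in both libraries. Cells were placed in classes by their share of UMIs in marker genes. The classes held 1315 control and 2388 case VSMC-like cells, 721 and 1429 fibroblast-like cells, and 57 and 235 endothelial-like cells. They also held 35 and 91 macrophage-like cells, 19 and 53 Schwann-like cells, and 179 and 72 cells with both VSMC and fibroblast markers. No class was given to 416 control (15.2%) and 662 case (13.4%) of the kept cells. The markers of each class were highest in that class. T cell and neutrophil markers were at or near 0 in every class. Of the planned markers, Pecam1, Col1a2, Trbc1 and Hba-a1 were not listed. The VSMC-like cells of the 2 libraries fell mostly into different clusters, since 62.1% of control cells lay in a cluster led by Acta2, Ramp1 and Tpm2 that held 5.19% of case cells, and 64.0% of case cells lay in a cluster led by Mt-atp8, Snai1 and Nexn that held 10.2% of control cells. A further 17.9% of control and 0.293% of case cells lay in a shallow cluster, with a median of 484 UMIs, whose leading genes included Hbb and Hba-a2.

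The level of a member in a class is its UMI sum divided by all UMIs of that class and library, times 1000000 (CPM). Hmox1, heme oxygenase 1, was found in every class. In macrophage-like cells it stood at 13582 CPM in the control artery and 13968 CPM in the injured artery. Fibroblast-like cells had 6134 and 6515 CPM, and VSMC-like cells had 2127 and 2524 CPM. Endothelial-like cells had 982 CPM (891 to 1079) in the control artery, the lowest of the 6 classes there, and 4533 CPM (4406 to 4662) in the injured artery, where they stood above VSMC-like cells. Schwann-like cells had 8262 and 5102 CPM over only 19 and 53 cells. The cells with both VSMC and fibroblast markers had 2818 and 4374 CPM.

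Hmox1 was unevenly spread over cells of 1 class. The tenth of VSMC-like cells with the most Hmox1 UMIs held 64.6% of its UMIs in the control artery and 46.9% in the injured artery. Cells were ranked by UMIs, not CPM, so these shares also follow depth, whose part was not tested. In the control artery the 741 VSMC-like cells of 10000 or more UMIs held 25024 of the 27367 Hmox1 UMIs. The median VSMC-like cell had 502 and 882 CPM, below the class level in both libraries. The median endothelial-like cell had 350.4 CPM in the control and 1040.3 CPM in the injured artery, and the upper quartile lay at 1005 and 6073 CPM. Median macrophage-like cells had 12003 and 11887 CPM.

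Slc7a11, the light chain of the cystine and glutamate exchanger, differed widely between classes. Macrophage-like cells had 1453 CPM in the control and 1726 CPM in the injured artery. Fibroblast-like cells had 80.7 and 115 CPM, endothelial-like cells 36.6 and 280.5 CPM, and VSMC-like cells 1.477 and 5.34 CPM. The kept cells without a class had 141 and 136 CPM. They held 186 of the 1336 control and 387 of the 2502 case Slc7a11 UMIs of kept cells. At least 1 Slc7a11 UMI was found in 71.4% of control and 58.2% of case macrophage-like cells, whose median cells held 8348 and 4950 UMIs. In VSMC-like cells the shares were 1.06% and 1.01%, with median cells of 11052 and 5568.5 UMIs. Some of these case cells lay in the Plvap-led and Cilp-led clusters described below, so the shares are not a clean background. In fibroblast-like cells 16.1% and 12.3% had a Slc7a11 UMI. After each cell was thinned to 1000 UMIs, these fibroblast-like shares were 3.38% (2.17% to 4.98%) and 5.13% (4.04% to 6.40%), with 10 control and 5 case cells too shallow to use. The order of the libraries was then the other way, but these intervals overlapped.

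Nqo1, which reduces quinones, had 1193 and 1574 CPM in macrophage-like cells, 353 and 428 CPM in fibroblast-like cells, 268 and 364 CPM in endothelial-like cells and 23.6 and 33.4 CPM in VSMC-like cells. Its macrophage-like level was thus above the other classes in both libraries, and VSMC-like cells were at the other end. Txnrd1, cytosolic thioredoxin reductase, had 1527 and 1144 CPM in macrophage-like cells and 457 and 454 CPM in fibroblast-like cells. Its endothelial-like level was 137 CPM (105 to 177) in the control and 376 CPM (340 to 414) in the injured artery, and VSMC-like cells had 96.0 and 117 CPM. Gclm, the modifier subunit of the enzyme that makes the glutathione precursor, was low, with 215 and 133 CPM in macrophage-like cells, 64.1 and 102 CPM in endothelial-like cells, 59.9 and 51.1 CPM in fibroblast-like cells and 43.1 and 36.3 CPM in VSMC-like cells. Neighbours in the order of classes were mostly not separated for Gclm.

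The motif TGACNNNGC, a core of the antioxidant response element, was searched on both strands of RefSeq promoters of the GRCr8 assembly, from 250 bases before to 50 bases after each start. The deposited counts used the Rnor_6.0 build, so these positions belong to GRCr8 alone. A total of 8 of the 10 symbols had a promoter there, and 3 of them (Gclm, Txnrd1 and Sod2) held the motif, against 12.1% of all 33469 promoters. The first count is over genes, of which Txnrd1 had 2 starts, and the second over promoters. The windows around the motifs are shown because these are the members with the motif. Gclm and Txnrd1 are also among those called between the arteries in endothelial-like cells, and the Gclm call was lost with clusters. Of the others called there, Slc7a11 held no motif and Hmox1 had no promoter listed. Capitals mark the motif, which is read on the opposite strand of the gene in each.
Gclm: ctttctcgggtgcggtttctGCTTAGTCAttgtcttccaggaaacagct
Txnrd1: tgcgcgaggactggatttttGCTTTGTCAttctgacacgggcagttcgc
Sod2: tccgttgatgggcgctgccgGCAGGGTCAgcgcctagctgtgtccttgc
The Gclm window lies at chr2:213031943-213031991 on the plus strand, and its motif begins 172 bases before the gene start. The Txnrd1 window lies at chr7:22755954-22756002 on the minus strand, at 1 of 2 listed starts, with the motif beginning 78 bases before that start. The Sod2 window lies at chr1:50050175-50050223 on the minus strand, and its motif begins 35 bases before the start. The windows of Slc7a11, Nqo1, Srxn1, Gpx1 and Gpx3 held no such letters, which says nothing of Nrf2 at those genes.

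Sod2, the mitochondrial superoxide dismutase, had 3655 and 2422 CPM in macrophage-like cells, 682 and 616 CPM in endothelial-like cells, 650 and 478 CPM in fibroblast-like cells and 317 and 252 CPM in VSMC-like cells. Macrophage-like cells were thus the highest class for Sod2 in both libraries, as for Hmox1, Slc7a11, Nqo1, Gclm and Txnrd1. The extracellular dismutase Sod3 showed another order, with 589.6 and 538 CPM in VSMC-like cells, 493 and 370.3 CPM in fibroblast-like cells, 52.6 and 41.9 CPM in endothelial-like cells and 14.1 and 27.1 CPM in macrophage-like cells, and the cells with both VSMC and fibroblast markers had 670.02 and 555 CPM. Gpx1, the cytosolic glutathione peroxidase, was highest in VSMC-like cells with 1072 and 892 CPM. It had 577 and 663 CPM in macrophage-like cells, 373 and 376 CPM in the endothelial-like class and 269 and 232 CPM in fibroblast-like cells. Gpx3, the secreted peroxidase, was highest in fibroblast-like cells with 4159.5 and 2997 CPM, against 32.6 and 26.2 CPM in VSMC-like cells, and 29.8 and 13.05 CPM in the endothelial-like class. Macrophage-like cells had 21.1 and 8.34 CPM.

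**Figure D1:**
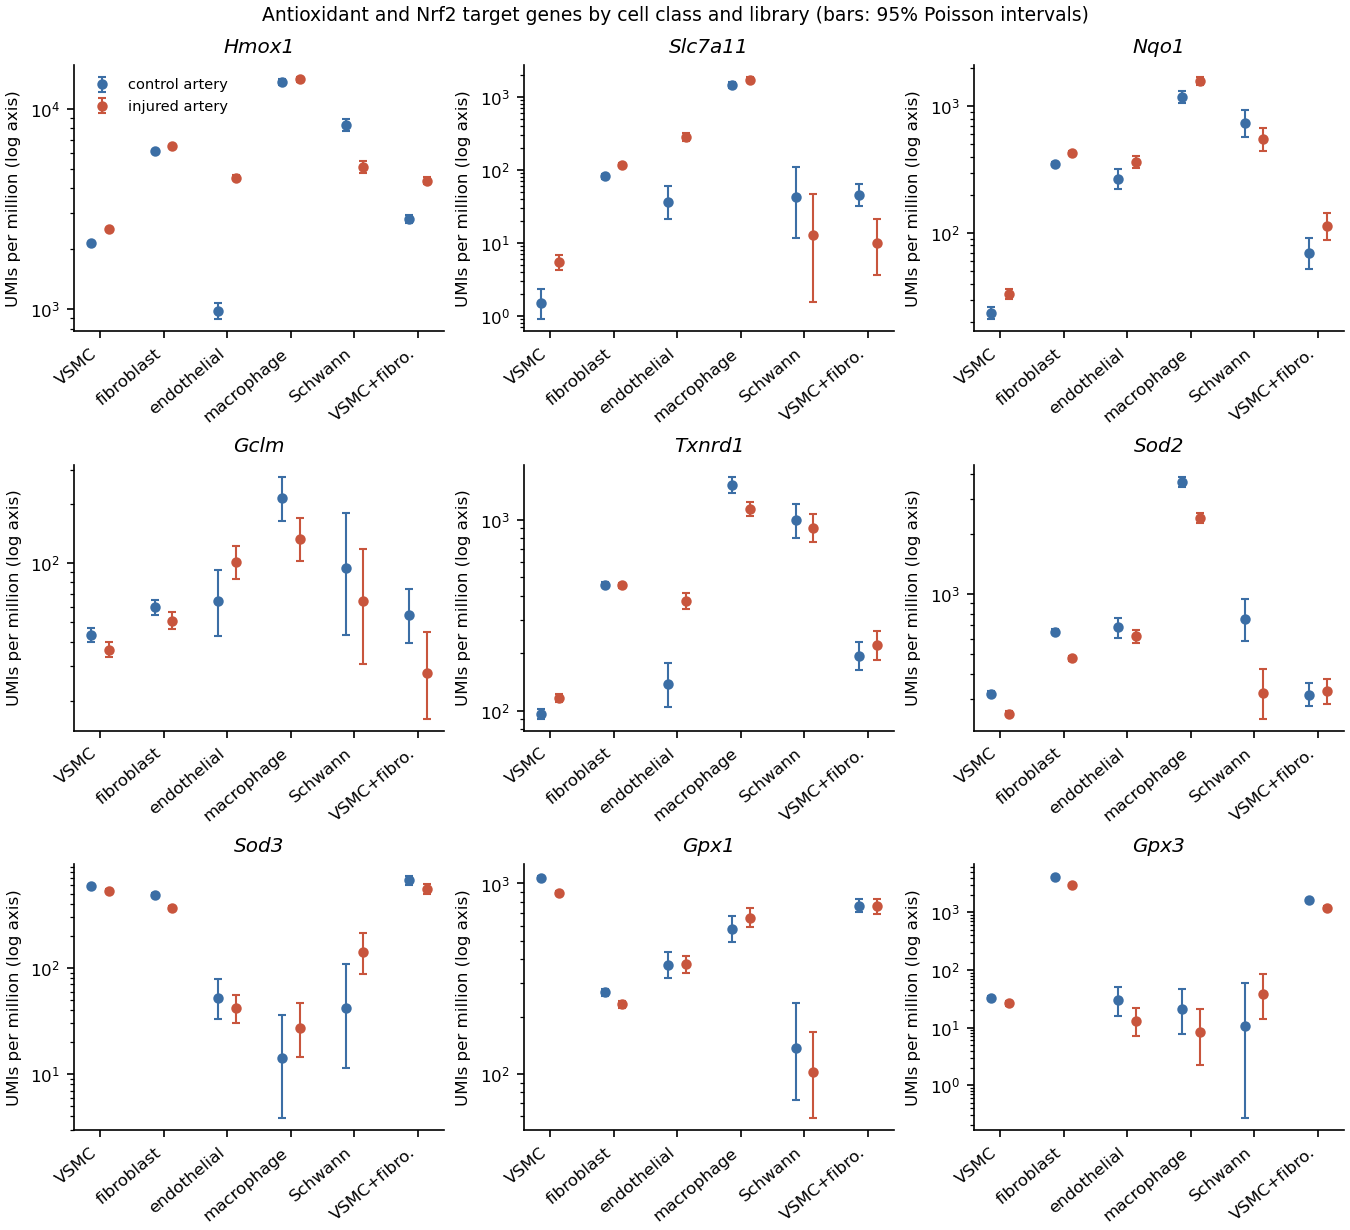
CPM of each of the 9 measured members (log axis) in 6 cell classes, with control (blue) and injured (red) arteries side by side and 95% Poisson intervals as bars. Macrophage-like cells are highest for Hmox1, Slc7a11, Nqo1, Gclm, Txnrd1 and Sod2 in both libraries, and fibroblast-like cells are highest for Gpx3.

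Over the 6 classes the highest class was the same in both libraries for 9 of 9 members. Over the 4 classes with at least 50 cells in each library, which leaves out macrophage-like and Schwann-like cells, it was the same for 8 of 9, and the exception was Slc7a11, highest in fibroblast-like cells of the control artery and in endothelial-like cells of the injured artery. Most neighbours in these orders were separated beyond counting error. In the control artery the Sod2 levels of Schwann-like, endothelial-like and fibroblast-like cells were not, nor were neighbouring Gclm levels from Schwann-like to VSMC-like cells. Fibroblast-like and VSMC-like cells, which are not neighbours for Gclm there, had intervals of 54.7 to 65.5 and 39.6 to 46.8 CPM. In the injured artery the highest class was not separated from the next for Gclm, where macrophage-like cells lay 0.39 (-0.08 to 0.85) above endothelial-like cells on the log2 scale, nor for Sod3, where the cells with both VSMC and fibroblast markers lay 0.05 (-0.11 to 0.20) above VSMC-like cells.

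The injured artery was compared with the control artery within each class by the ratio of CPM. A gene was called higher or lower where the ratio was at least 1.5-fold and its interval left out no change, among genes with at least 30 UMIs in both libraries together. Among VSMC-like cells 1 of 9 members was called higher (Slc7a11) and 0 lower, against 6.1% of all 11003 genes called higher and 14.7% called lower. In fibroblast-like cells 0 of 9 members were called in either direction, against 7.11% of 10046 genes higher and 13.5% lower. In macrophage-like cells 0 of 7 tested members were called higher and 2 lower (Gclm and Sod2), against 11.2% of 2960 genes higher and 10.4% lower. In endothelial-like cells 4 of 8 tested members were called higher (Hmox1, Slc7a11, Gclm and Txnrd1) and 0 lower, against 13% of 4940 genes higher and 19.1% lower. Among Schwann-like cells 0 of 4 tested members were called higher and 2 lower (Hmox1 and Sod2), against 17.6% of 1279 genes higher and 15.9% lower. Among the cells with both VSMC and fibroblast markers 2 of 9 members were called higher (Hmox1 and Nqo1) and 2 lower (Slc7a11 and Gclm), against 6.72% of 4586 genes higher and 13% lower. The median log2 ratio of the tested members was -0.13 in VSMC-like cells (-0.13 over all tested genes) and -0.21 in fibroblast-like cells (-0.09 over all). It was 0.55 in endothelial-like cells (-0.11 over all) and 0.04 in macrophage-like cells (0.01 over all). It was -0.56 in Schwann-like cells (0.04 over all) and -0.01 in the cells with both VSMC and fibroblast markers (-0.13 over all). Gpx3 in endothelial-like cells, and Sod3 and Gpx3 in macrophage-like cells, had too few UMIs to be tested.

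**Figure D2:**
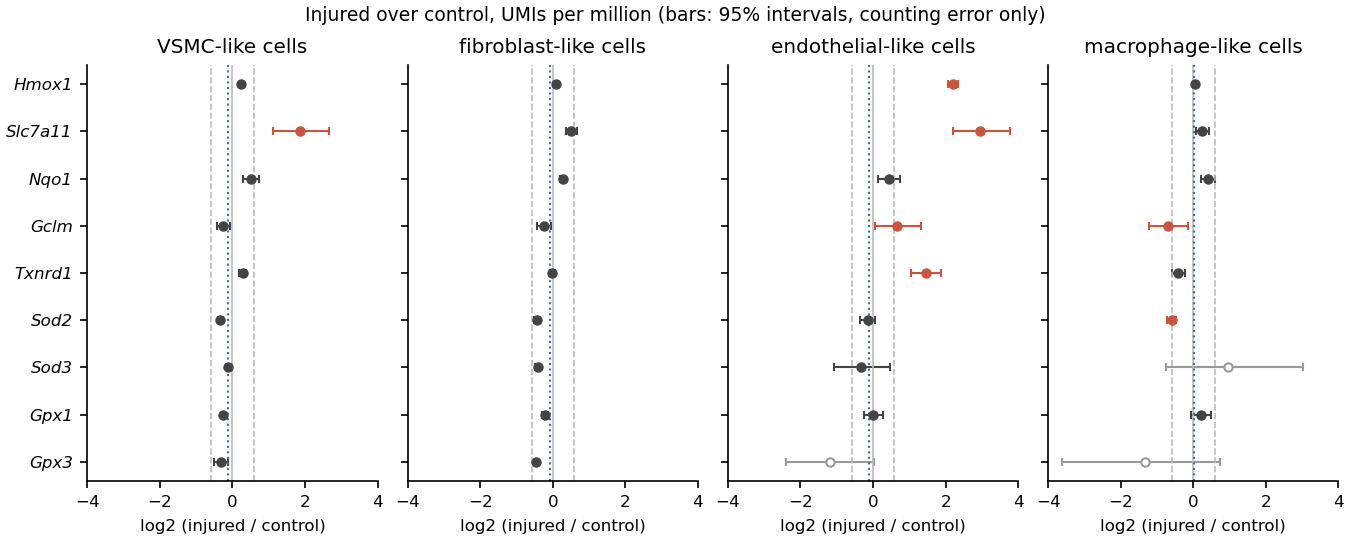
Log2 ratio of injured over control CPM for the 9 members in 4 cell classes with 95% intervals, where red points were called, grey open points had too few UMIs for a call, dashed lines mark 1.5-fold and the dotted blue line marks the median of all tested genes. The red points lie to the right in endothelial-like cells, for Hmox1, Slc7a11, Gclm and Txnrd1, and to the left in macrophage-like cells, for Gclm and Sod2.

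In endothelial-like cells the log2 ratio was 2.21 (2.06 to 2.35) for Hmox1, 2.94 (2.21 to 3.76) for Slc7a11, 1.45 (1.06 to 1.87) for Txnrd1 and 0.66 (0.05 to 1.32) for Gclm. These ratios rest on 429, 16, 60 and 28 UMIs in the 57 control cells. Nqo1 had a log2 ratio of 0.44 (0.14 to 0.75), Sod2 of -0.15 (-0.35 to 0.06), Gpx1 of 0.01 (-0.26 to 0.28) and Sod3 of -0.33 (-1.08 to 0.46). The control level of Nqo1 rests largely on a single cell, as given below. For Sod2, Gpx1 and Sod3 the difference lay within counting error. The Gclm call was lost and turned to -0.46 (log2) when the class was taken from clusters in place of the marker gate.

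The endothelial-like cells of the 2 libraries differed in kind. When cells were clustered without the members among the variable genes, they fell into a cluster led by Pkhd1l1 and Vwf, which encodes von Willebrand factor, and a cluster led by Fabp4, Cdh5, Plvap, Ccl21 and Emcn, genes that include markers of capillary, venous and lymphatic endothelium. The Plvap-led cluster held 8 of the control cells (14.04%) and 113 of the case cells (48.1%), while the Vwf-led cluster held 48 (84.2%) and 121 (51.5%). By its summed markers the Vwf-led cluster was named endothelial-like, and the Plvap-led cluster stayed unnamed. This split was chosen after the values were seen.

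Hmox1 was far higher in the Plvap-led than in the Vwf-led cells of each library, and higher in the injured artery within both. In Vwf-led cells it had 354 CPM in the control and 1173 CPM in the injured artery, a 3.32-fold difference (2.75 to 4.02). In Plvap-led cells it had 4555 and 8685 CPM, a 1.91-fold difference (1.67 to 2.19). Over all endothelial-like cells the difference was 4.62-fold (4.18 to 5.11), above the value within either cluster. The planned split by Plvap or Emcn did not follow these clusters. It called 70 case cells positive, while 113 case cells lay in the Plvap-led cluster, so the negative cells still held Plvap-led cells. The negative case cells held 142 Slc7a11 UMIs, against 2 in the Vwf-led case cells. The 51 control and 165 case negative cells had 695 and 3620 CPM of Hmox1, a difference no smaller than over the whole class. The 6 and 70 positive cells had 4207 and 7008 CPM.

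Slc7a11 lay mostly in the Plvap-led cells among endothelial-like cells. It had 317 and 631 CPM there, a 1.99-fold difference (1.21 to 3.53), and 0 and 3.37 CPM in the Vwf-led cells. Over all endothelial-like cells the difference was 7.66-fold (4.64 to 13.6). Txnrd1 had 753 and 724 CPM in Plvap-led cells, a ratio of 0.96 (0.69 to 1.38), and 55.9 and 103 CPM in Vwf-led cells, a 1.84-fold difference (1.10 to 3.18). By the planned split, whose negative cells included Plvap-led cells, Txnrd1 had 69.8 and 295 CPM in negative and 897 and 595 CPM in positive cells. Gclm had 218 and 193 CPM in Plvap-led and 45.2 and 30.3 CPM in Vwf-led cells, ratios of 0.88 (0.47 to 1.83) and 0.67 (0.33 to 1.39). Both lay below 1, although Gclm was called higher over the whole class, and both intervals took in no change. Nqo1 had 58.5 and 142 CPM in Vwf-led cells, a 2.42-fold difference (1.498 to 4.06), and 594 and 592 CPM in Plvap-led cells. Of the 117 Nqo1 UMIs of the 57 control cells, 22 lay in the 48 Vwf-led and 30 in the 8 Plvap-led cells. The others lay in the single control cell outside both clusters, so the control level of the class rests largely on that cell. Sod2 was lower in the injured artery in Plvap-led cells, with 1901 and 878 CPM, a ratio of 0.46 (0.37 to 0.58) that rests on 8 control cells, and had 481 and 415 CPM in Vwf-led cells. The mix of the 2 clusters moved with the library, and its part in the differences over the whole class was not tested beyond these values.

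**Figure D3:**
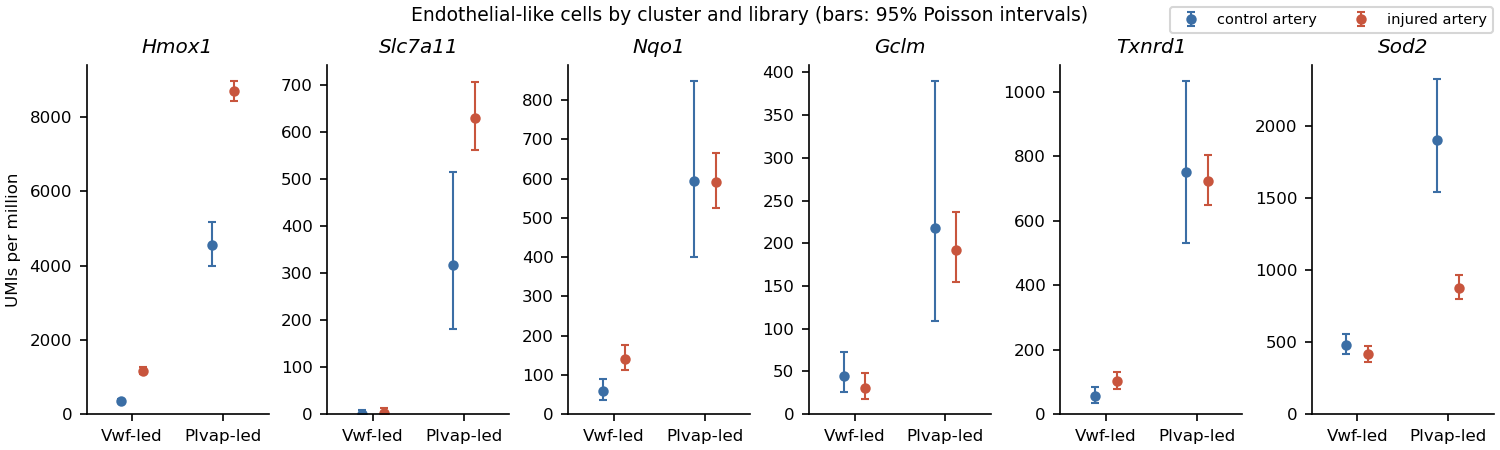
CPM of 6 members in endothelial-like cells of the Vwf-led and the Plvap-led cluster, with control (blue) and injured (red) arteries and 95% Poisson intervals. Each of the 6 members is higher in the Plvap-led than in the Vwf-led cells of the same library, and Hmox1 is higher in the injured artery in both clusters.

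Among the 301 Slc7a11 UMIs of the case endothelial-like cells, 298 lay in the Plvap-led cluster, so a split by Slc7a11 overlaps with the split by cluster. Of the other members, Hmox1, Nqo1, Gclm, Txnrd1 and Sod2 were higher in endothelial-like cells that had Slc7a11. The 39 case endothelial-like cells with a Slc7a11 UMI had 13372 CPM of Hmox1, against 2437 CPM in the 196 without, a 5.49-fold difference (5.18 to 5.81). The cells with Slc7a11 also had 6.63 times the Nqo1, 6.73 times the Gclm, 4.97 times the Txnrd1 and 2.48 times the Sod2, at median depths of 4997 and 3863.5 UMIs. Macrophage markers stood at 43.8 CPM in the cells with Slc7a11 and 31.1 CPM in those without, beside 13063 CPM in the case macrophage-like cells with Slc7a11, so both were far below the macrophage-like level. Endothelial markers stood at 3658 and 2808 CPM. Of the cells with Slc7a11, 48.7% were positive for Plvap or Emcn, against 26.0% of those without. Among cells without a Slc7a11 UMI, Hmox1 was 3.14-fold higher (2.79 to 3.54) and Txnrd1 2.45-fold higher (1.71 to 3.604) in the injured artery. The ratios of Gclm (1.05, 0.60 to 1.92) and Nqo1 (0.78, 0.60 to 1.02) took in no change. That of Nqo1 rests largely on the single control cell outside both clusters, so it cannot show that Nqo1 was unchanged. Of these cells without Slc7a11, 3.77% of 53 control and 26.0% of 196 case cells were positive for Plvap or Emcn. The mix of cells thus still differed between the libraries.

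In macrophage-like cells the 35 control and 91 case cells lay in 1 cluster. Gclm had a log2 ratio of -0.69 (-1.21 to -0.16), from 61 and 64 UMIs, and Sod2 of -0.59 (-0.72 to -0.47), from 1039 and 1162 UMIs. Sod2 was found in 35 of 35 control and 87 of 91 case cells. Txnrd1 had a log2 ratio of -0.42 (-0.60 to -0.23) and did not reach 1.5-fold. Hmox1 at 0.04 (-0.02 to 0.10) differed by less than counting error, and Slc7a11 at 0.25 (0.08 to 0.42) and Nqo1 at 0.40 (0.21 to 0.59) stayed under 1.5-fold. The Sod2 ratio lay at the edge of the 1.5-fold limit and ran from -0.63 to -0.49 (log2) under the other ways of processing tried, so its call was lost under some of them. Median depth moved with the library in these cells, at 8348 and 4950 UMIs. After each cell was thinned to 1000 UMIs the log2 ratio was -1.50 (-2.89 to -0.13) for Gclm and -0.49 (-0.82 to -0.16) for Sod2. Thinning leaves the expected share of a gene within a cell unchanged, so it cannot show the part of depth, which was not tested. Neither was called then, since Gclm kept under 30 UMIs and Sod2 stayed under 1.5-fold.

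The remaining 2 classes were small and differed in depth. The 19 control and 53 case Schwann-like cells had medians of 5149 and 3047 UMIs. Hmox1 had a log2 ratio of -0.70 (-0.84 to -0.55) there, from 783 and 797 UMIs, and Sod2 of -1.23 (-1.78 to -0.68), with 749 and 320.1 CPM from 71 and 50 UMIs. The 179 control cells with both VSMC and fibroblast markers had a median of 1273 UMIs, against 8674 UMIs in the 72 case cells. Hmox1 had a log2 ratio of 0.63 (0.55 to 0.72) in them and Nqo1 of 0.72 (0.18 to 1.26), with 69.5 and 114 CPM. Slc7a11 fell from 34 to 6 UMIs, or 45.5 to 9.80 CPM, a log2 ratio of -2.21 (-3.76 to -0.94), and Gclm from 41 to 17 UMIs, a log2 ratio of -0.98 (-1.89 to -0.13). Slc7a11 and Hmox1 were thus, like Gclm, called in opposite directions in different classes, a difference that was not tested. The part of depth in these 2 classes was not tested.

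In fibroblast-like cells the 9 members lay within 1.5-fold. Slc7a11 had a log2 ratio of 0.51 (0.37 to 0.66) and Nqo1 of 0.28 (0.21 to 0.35), while Hmox1 stood at 0.09 (0.07 to 0.10) and Txnrd1 at -0.01 (-0.08 to 0.06). On the other side were Gpx3 at -0.47 (-0.50 to -0.45), Sod2 at -0.44 (-0.50 to -0.38), Sod3 at -0.41 (-0.48 to -0.34), Gclm at -0.23 (-0.42 to -0.04) and Gpx1 at -0.21 (-0.30 to -0.12).

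The levels in fibroblast-like cells moved with the depth of the cell, which differed between the libraries (medians of 11167 and 5154 UMIs). Among cells of 5000 to 10000 UMIs, Hmox1 had 3970 CPM in 222 control cells and 7120.5 CPM in 670 case cells, and among cells of 10000 or more it had 6839 CPM in 418 control cells and 8216 CPM in 76 case cells. In the same bands Slc7a11 had 20.3 and 141 CPM, and 98.9 and 234 CPM, Nqo1 had 107 and 492 CPM, and 429 and 735 CPM, and Txnrd1 had 183 and 508 CPM, and 541 and 662 CPM. Among cells of 2000 to 5000 UMIs (55 control and 608 case) Hmox1 had 2252 and 4852 CPM, Slc7a11 5.08 and 22.9 CPM, Nqo1 40.7 and 201 CPM, and Txnrd1 86.4 and 281 CPM. In these 3 bands the 4 members were thus higher in the injured artery, apart from Slc7a11 at 2000 to 5000 UMIs, which rests on 1 control UMI and whose intervals overlapped. Cells under 2000 UMIs (26 control and 75 case) went the other way, with 3523 and 2160.04 CPM of Hmox1, 173 and 35.7 CPM of Nqo1 and 518 and 107 CPM of Txnrd1. The intervals of Nqo1, on 5 and 4 UMIs, and of Slc7a11, on 3 and 1 UMIs, overlapped there. Sod2 turned between the bands, with 459 and 522 CPM at 5000 to 10000 UMIs and 713 and 565 CPM at 10000 or more. Gpx3, Gpx1 and Sod3 were lower in the injured artery in all 4 bands, Gpx3 with 4576 and 3019.5 CPM, and 3927 and 2982 CPM, in the deepest 2. For Gpx1 under 2000 UMIs, on 14 and 30 UMIs, the intervals overlapped. A band of UMIs holds shallower cells of the control library and deeper cells of the case library, and whether depth or artery sets these values cannot be told apart.

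Fibroblast-like cells were also split by genes outside the list. Gfpt2, which encodes an enzyme of hexosamine synthesis, was present at 2 or more UMIs and 0.05% of UMIs in 50.5% of control and 52.6% of case fibroblast-like cells. Hmox1 had 8555 CPM in the Gfpt2-positive and 2332 CPM in the Gfpt2-negative cells of the control artery, and 8730 and 3035 CPM in the injured artery, which are 3.67-fold (3.58 to 3.76) and 2.88-fold (2.81 to 2.94) differences. Nqo1 had 538 and 62.8 CPM in the control and 649 and 82.1 CPM in the injured artery, differences of 8.57-fold (7.42 to 9.94) and 7.91-fold (6.95 to 9.03). Slc7a11 was 7.20-fold (5.44 to 9.69) and 9.63-fold (7.34 to 12.9) higher in the positive cells. Txnrd1 was 4.45-fold and 3.45-fold higher, Sod2 2.27-fold and 1.82-fold, and Gclm 1.56-fold and 1.79-fold.

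The peroxidases had the opposite order. Gpx1 was at 0.63 (0.58 to 0.69) and 0.70 (0.64 to 0.77) times, and Gpx3 at 0.81 and 0.79 times, the level of Gfpt2-negative cells. Sod3 was at 0.94 (0.88 to 1.00) and 0.97 (0.90 to 1.04) times. The Gfpt2-positive cells were deeper, with medians of 13851.5 against 8491 UMIs in the control and 6034 against 4266.5 UMIs in the injured artery, and the part of depth was not tested.

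Pi16, a marker of adventitial fibroblasts, showed another order. Pi16-positive cells were 68.2% of control and 37.2% of case fibroblast-like cells. Gpx3 had 4855 and 2561 CPM in positive and negative cells of the control artery and 4129 and 2281 CPM in the injured artery, which are 1.90-fold (1.85 to 1.95) and 1.81-fold (1.76 to 1.86) differences. Median depths were 11202.5 and 11127 UMIs in the control, and 5511 and 4928 UMIs in the injured artery. Slc7a11 stood at 0.50 (0.43 to 0.58) and 0.35 (0.29 to 0.41) times, and Txnrd1 at 0.69 and 0.70 times, the level of Pi16-negative cells. Sod3 was equal in the control artery, at 1.00 (0.94 to 1.07), and 1.56-fold higher (1.45 to 1.68) in Pi16-positive cells of the injured artery. Postn-positive cells (Postn encodes periostin) were 9 control and 141 case cells, and the latter had 1442 CPM of Gpx3, at 0.45 (0.43 to 0.48) times the Postn-negative cells, with 1.64-fold (1.38 to 1.95) more Slc7a11.

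**Figure D4:**
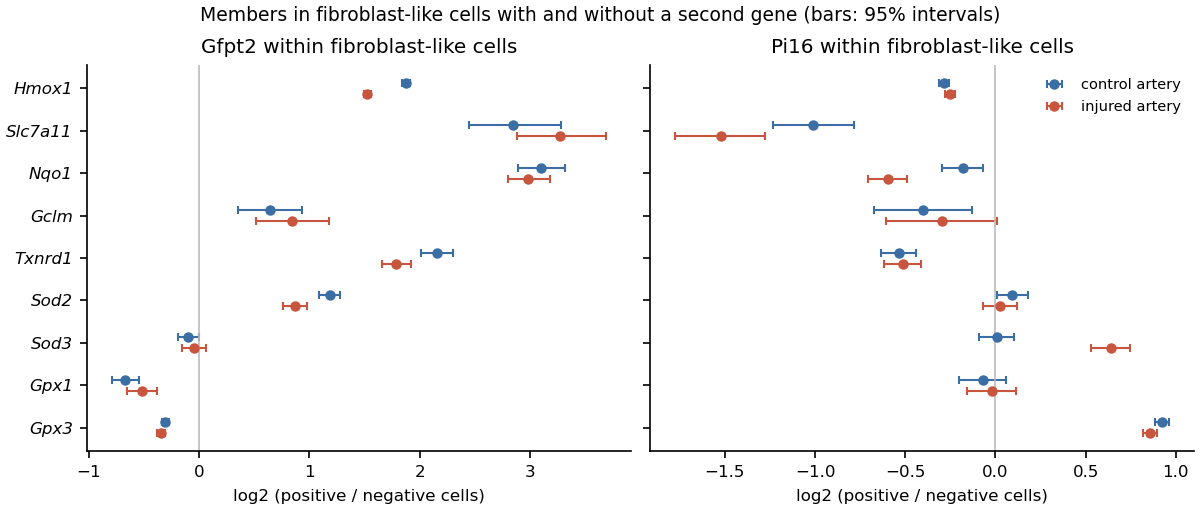
Log2 ratio of each member in fibroblast-like cells positive for Gfpt2 (left) or Pi16 (right) over the negative cells, for the control (blue) and injured (red) artery, with 95% intervals. Hmox1, Slc7a11, Nqo1, Gclm, Txnrd1 and Sod2 lie to the right of 0 for Gfpt2 in both libraries, and Gpx3 lies to the right of 0 for Pi16.

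Hmox1 and Nqo1 also differed between fibroblast-like clusters. A cluster led by Cd55, Has2 and Dact2 (51 control and 76 case cells) had 10488 and 11890.1 CPM of Hmox1 and 1089 and 1475 CPM of Nqo1. A cluster led by Alpl, Pdgfrl and Sfrp2 among others held 81.0% of control and 46.3% of case cells and had 5673 and 5373 CPM of Hmox1 and 269 and 215 CPM of Nqo1. A cluster led by Cilp, Il1rl1 and Itm2a held 5.96% of control and 42.1% of case cells and had 5974 and 7075 CPM of Hmox1 and 317 and 528 CPM of Nqo1. Sod2 was lower in the injured artery in each of these 3, at 0.56, 0.79 and 0.58 times the control level. Slc7a11 went from 58.1 to 43.3 CPM in the Alpl-containing cluster, against 200 to 356 CPM in the Cd55-led and 123 to 165 CPM in the Cilp-led cluster, so its direction differed between clusters.

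In VSMC-like cells Slc7a11 was called higher, with a log2 ratio of 1.85 (1.11 to 2.66), on 19 and 75 UMIs. These UMIs lay in 14 of 1315 control and 24 of 2388 case cells, shares of 1.06% and 1.01%, so the UMIs per positive cell differed more than the share of cells. By cluster, 18 of the 19 control UMIs lay in the Acta2-led (16) and Mt-atp8-led (2) clusters. Of the 75 case UMIs, 7 lay in the Mt-atp8-led and 6 in the Nav2-led cluster, 25 in 13 VSMC-gated cells of the Plvap-led cluster, and 35 in a single cell of the Cilp-led cluster. Without that cell the log2 ratio was 0.95 (0.13 to 1.82), and without the VSMC-gated cells of the Plvap-led and Cilp-led clusters it was -0.45 (-1.53 to 0.61), so the call rests on cells outside the main VSMC-like clusters. Both were chosen after the values were seen. Endothelial markers stood at 184 CPM in the 24 case cells and 5.19 CPM in the other case cells. With a gate minimum 2 times higher the log2 ratio was -0.25 (-1.73 to 1.13), and the call was lost. Nqo1 had a log2 ratio of 0.51 (0.29 to 0.72), Txnrd1 of 0.28 (0.17 to 0.39) and Hmox1 of 0.25 (0.22 to 0.27), all under 1.5-fold. Sod2 at -0.33 (-0.39 to -0.26), Gpx3 at -0.31 (-0.52 to -0.11), Gpx1 at -0.27 (-0.30 to -0.23), Gclm at -0.25 (-0.42 to -0.07) and Sod3 at -0.13 (-0.18 to -0.09) lay on the lower side, and Sod3 lay at the median of all genes. The Gpx3 value ran from -2.71 to 0.01 under the other ways of processing tried. Control VSMC-like cells under 2000 UMIs had 410 CPM of Gpx3.

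Depth also moved with the library in VSMC-like cells. Among cells of 10000 or more UMIs Hmox1 had 2263 CPM in 741 control cells and 3131 CPM in 140 case cells. At 5000 to 10000 UMIs it had 1274 CPM in 170 control and 2651 CPM in 1344 case cells, and at 2000 to 5000 UMIs 1312 and 1903 CPM in 66 and 851 cells. Under 2000 UMIs (338 control and 53 case cells) it had 1428 and 1230 CPM, so the higher Hmox1 of the injured artery was seen in 3 of 4 bands. In the 2 deepest bands Txnrd1 had 77.2 and 115 CPM, and 98.8 and 144 CPM. Slc7a11 had 2.23 and 2.58 CPM at 5000 to 10000 UMIs, and 1.36 and 25.5 CPM at 10000 or more. The last value rests on 44 case UMIs, of which 35 lay in the single cell of the Cilp-led cluster named above. The depth of a cell and its artery cannot be told apart in these values either.

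Within VSMC-like cells Hmox1 varied more between clusters than between arteries. A cluster led by Nav2, Zmiz1 and Gprc5a held 2.43% of control and 26.8% of case cells and had 7135 and 5580.4 CPM. The Acta2-led cluster had 2145 and 2508.5 CPM, and the cluster led by Mt-atp8, Snai1 and Nexn had 702 and 1146 CPM. Nqo1 and Txnrd1 followed the same order in the injured artery, with 62.8 and 197 CPM in the Nav2-led, 26.2 and 130.1 CPM in the Acta2-led, and 15.8 and 73.8 CPM in the Mt-atp8-led cluster. The 11 control and 50 case cells positive for Notch1, the receptor, had 6224 and 6124 CPM of Hmox1, which is 2.99-fold (2.78 to 3.20) and 2.49-fold (2.36 to 2.62) above Notch1-negative cells, and Gpx1 stood at 0.82 (0.67 to 0.98) and 0.73 (0.62 to 0.85) times. Spp1, osteopontin, separated the members less, with Hmox1 at 0.99 (0.96 to 1.02) and 1.27 (1.23 to 1.30) times in Spp1-positive cells.

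A wider list of 80 genes of Nrf2 signalling, glutathione, thioredoxin, peroxiredoxin, metal binding and oxidant production, the members left out, held 76 listed genes. In VSMC-like cells 5 of 68 tested genes were called higher (7.35%, against 6.1% of all genes) and 17 lower (25%, against 14.7%), with a median log2 ratio of -0.25. The 8 with the largest ratios were Akr1b10, an aldo-keto reductase, at 3.16, Chac1, which degrades glutathione, at 1.32, the NADPH oxidase Nox1 at 1.31, the selenium carrier Selenop at -1.61, the mitochondrial glutaredoxin Glrx2 at -1.20, Mgst3 at -1.11, the mitochondrial thioredoxin Txn2 at -1.06 and the peroxiredoxin Prdx4 at -1.02. The other genes called higher were the metallothionein Mt2A at 1.01 and Trib3 at 0.79. Akr1b10 rests on 4 control UMIs and Nox1 on 10, and reads of Akr1b10 may be split with its close paralogs.

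In fibroblast-like cells 3 of 69 were called higher (4.35%, against 7.11% of all genes) and 29 lower (42.0%, against 13.5%), with a median of -0.35. The 8 with the largest ratios were Ucp2 at -1.47, Mgst3 at -1.39, Prdx4 at -1.13, Mgst1 at -1.01, Pon2 at -0.99, Ptgr1 at 0.98, Prdx5 at -0.96 and the ferritin light chain Ftl1 at -0.94. Akr1b10 at 0.82 and Mt2A at 0.60 were the other genes called higher. In endothelial-like cells 6 of 47 were called higher (12.8%, against 13% of all genes) and 18 lower (38.3%, against 19.1%), among them the aldehyde dehydrogenase Aldh3a1 at -1.40, Prdx4 at -1.27, the malic enzyme Me1 at -1.24, the NADPH oxidase subunit Cyba at -1.22, the glutathione S-transferase Gstm1 at -1.20 and the metallothionein Mt1 at -1.17. The 6 called higher, like those 6 named after their values were seen, were Nfe2l2 itself at 0.76, its partner Mafk at 1.34, the glutathione synthesis gene Gclc at 0.86, Akr1b10 at 3.83, the autophagy receptor Sqstm1 at 1.00 and Chac1 at 2.10. Their share was near that of all genes. These ratios rest on 57 control cells, and the mix of the Vwf-led and Plvap-led clusters differed between the libraries, a part that was not tested. The limit on Akr1b10 reads holds here too. In macrophage-like cells 8 of 40 were called higher (20%, against 11.2% of all genes) and 6 lower (15%, against 10.4%). Among them, also named after their values were seen, were Akr1b10 at 2.78, the biliverdin reductase Blvrb at 1.52 and catalase (Cat) at 0.99, and Prdx1 at -1.40, the thioredoxin Txn1 at -1.30 and the glutathione peroxidase Gpx4 at -0.90.

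Over the 10 sums of a class and a library with at least 50 cells, the 2 genes with the pattern most like each member among 4785 genes were described by Pearson's r of log2 (CPM + 10). They were Ipo5 (0.97) and Baz1a (0.95) for Hmox1, Tollip and Ranbp2 for Slc7a11, Abca1 and Piezo1 for Nqo1, Arpc5 and Nfkbib for Gclm, Ednrb and Raly for Txnrd1, Glmp and Snx2 for Sod2, Efemp2 and Loxl1 for Sod3 (both 0.98), Pdlim5 and Pgk1 for Gpx1, and Clec11a and Serping1 for Gpx3 (both 0.99). Among the members themselves the highest values were 0.90 for Nqo1 with Txnrd1 and for Slc7a11 with Sod2, and the lowest was -0.84 for Gclm with Sod3. These points share libraries, depth and classes, and with 10 points and so many genes high values are common.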

How the data were processed

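Single-cell RNA-seq of 2 libraries was used, each from pooled carotid arteries of 2 rats. The deposited values are whole UMI counts in 1 matrix of both libraries, which the authors made with Cell Ranger 3.1.0 per the file headers and with the Rnor_6.0 build per the processing notes. Libraries were told apart by barcode suffix and the stated barcode numbers. Kept cells had at most 20% mitochondrial UMIs and lay within 2 SD on log10 UMIs and genes, and within 3 robust SD of the genes fitted from UMIs. Marker gates needed at least 1% of UMIs for VSMC-like (fibroblast markers then below 1%) and fibroblast-like cells (VSMC markers then below 0.4%), 0.1% for endothelial-like and Schwann-like and 0.2% for macrophage-like cells, and at least 3 marker UMIs. These limits were set after the marker values were seen. A positive sub-gate needed 2 UMIs and 0.05% of UMIs. Counts were summed per class and library. Doublets were left in, since Scrublet marked only 6 of 2742 control and 0 of 4930 case cells and so had not worked. All 6 were control cells with both VSMC and fibroblast markers. The members and lists were chosen with earlier results of these data known. Named genes were the members, the 2 genes most like each in pattern (at least 50 CPM in 1 sum), and up to 8 called genes of the wider list in VSMC-like or fibroblast-like cells. The calls were run on simulated Poisson counts, the model that the intervals assume. These hold no variation between cells, rats or libraries, so they show nothing of error beyond counting. Alternatives changed the filter, classes, scaling, depth or weighting of cells. Tools were Python 3.11.15, scipy 1.17.1, scanpy 1.11.5, leidenalg 0.10.2, R 4.3.3 and edgeR 4.0.16, the last for TMM factors only. Replicates were not available, so no test between groups was run.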

Additional observations from a re-analysis of the deposited data

Results flagged for a closer look

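Hmox1, Slc7a11 and Gclm were each called in opposite directions in different classes of the same comparison, and none of these differences between classes was tested, since each group had 1 library. The log2 ratio of injured over control artery was 0.66 for Gclm in endothelial-like cells, from 28 and 109 UMIs, against -0.69 in macrophage-like cells, from 61 and 64 UMIs, and -0.98 in the cells with both VSMC and fibroblast markers, from 41 and 17 UMIs. The endothelial-like value turned to -0.46 when the class was taken from clusters. For Slc7a11 it was 2.94 in endothelial-like and 1.85 in VSMC-like cells, against -2.21 in the cells with both VSMC and fibroblast markers, from 34 and 6 UMIs. The VSMC-like value turned to -0.45 without the VSMC-gated cells of the Plvap-led and Cilp-led clusters. For Hmox1 it was 2.21 in endothelial-like cells and 0.63 in the cells with both VSMC and fibroblast markers, against -0.70 in Schwann-like cells. The ratios in Schwann-like cells and in the cells with both markers were not computed under the other ways of processing.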

How the results depend on the processing

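No paired analysis was possible because each group had 1 library, in which both rats were pooled. Ratios under alternatives were computed for VSMC-like, fibroblast-like, endothelial-like and macrophage-like cells only. The calls in Schwann-like cells and in the cells with both VSMC and fibroblast markers were thus not rerun, apart from the thinned means given above. Of 387 member values under alternatives, 306 moved by less than their counting interval, 78 moved further and 3 reversed. Removal of Scrublet doublets took no cell from these classes, so its values repeat the main run and count among the 306. Only members called in the main run could count as reversed, so changes of sign in uncalled members lie among the other values. For example, the log2 ratio of Nqo1 in VSMC-like cells was 0.51 in the main run and as low as -0.07. That of Gclm in fibroblast-like cells was -0.23 and as high as 0.12. The reversed values were the log2 ratio of Slc7a11 in VSMC-like cells, -0.25 with a gate minimum 2 times higher and -0.45 without the cells of the Plvap-led and Cilp-led clusters, and that of Gclm in endothelial-like cells, -0.46 with Leiden clusters. The cause was not tested. Among VSMC-like cells the 1 member called higher became 0 with Leiden clusters, 0 with the higher gate minimum, 0 after thinning to 1000 UMIs, 0 without the cells of the Plvap-led and Cilp-led clusters and 2 with TMM factors, and the 0 called lower became 1 with the higher gate minimum and 1 with the mean of per-cell CPM. Among fibroblast-like cells thinning gave 1 member higher and 1 lower in place of 0 and 0. Among macrophage-like cells the 2 called lower became 0 with the higher gate minimum and 0 after thinning, where the log2 ratios were -0.56 (-1.11 to -0.01) and -1.50 (-2.89 to -0.13) for Gclm, and -0.54 and -0.49 for Sod2. They became 1 without barcodes under 2000 UMIs, 1 without mitochondrial and ribosomal protein genes, 1 with TMM factors and 1 with the mean of per-cell CPM. Among endothelial-like cells 3 to 5 members were called higher and 0 lower under the alternatives run, and the Hmox1 log2 ratio ran from 1.16 to 2.47. Slc7a11 had a ratio in only 10 of these 12 alternatives, since a ratio needs a UMI in both libraries. Without the Plvap- or Emcn-positive cells it had 0 control UMIs. With Leiden clusters this class took in the Vwf-led but not the Plvap-led cluster. Members with the same highest class ran from 6 to 9, a count not run with TMM factors. TMM factors raised log2 ratios by 0.26 in the endothelial-like class, 0.13 in VSMC-like cells, 0.06 in fibroblast-like cells and 0.05 in macrophage-like cells. Leaving out shared barcodes, the VSMC-like cells named above or that with the most Slc7a11, and Plvap- or Emcn-positive cells, and counting every class, were chosen after seeing the data. The 57 control endothelial-like and 35 control macrophage-like cells limit the precision of those classes.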
